A study of Mus musculus with 6 samples.

Results

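The genes described here are those of serine synthesis (Phgdh, Psat1 and Psph), the folate enzymes that carry the one-carbon unit of serine (Shmt1, Shmt2, Mthfd1, Mthfd2 and Mthfd1l), asparagine synthetase (Asns) and the transcription factor Atf4, in neurospheres of adult Ts1Cje mice and of disomic littermates. They were selected on their place in the pathway and on the Ts1Cje minus disomic differences of these same arrays, so the values below describe the genes and are not a test of them. On Affymetrix arrays of the whole mouse genome the 10 genes had 26 probe sets that the platform annotation gives to a single symbol, of 45037 probe sets in all. A further pair of probe sets is shared between Phgdh and a predicted gene (Gm8096 or Gm6756) and was not counted.

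Ts1Cje mice carry an extra copy of a distal segment of chromosome 16, translocated to the distal end of chromosome 12. The copy of Sod1 at the border of that segment is not functional. Neurospheres were grown for 7 days with EGF and FGF2 from the subventricular zone of female mice aged 84 days, 3 Ts1Cje cultures and 3 cultures of C57BL/6 disomic littermates, with 1 array per culture and 2 cycles of RNA labelling. None of the 10 genes lies on chromosome 16, so both genotypes carry the same number of copies of each. Mthfd1 lies on chromosome 12, with a promoter window that starts at 76254982. For comparison, the promoter of Dnah11, a gene of the distal end of that chromosome, starts at 118198994 (RefSeq, GRCm38.p6).

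Serine is made from the glycolytic intermediate 3-phosphoglycerate in a short chain of enzymatic steps, and its side chain carbon is passed to folate when serine is split into glycine. The folate-bound carbon is used to build purines and thymidylate and to regenerate methionine, so the pathway supplies dividing cells, among them the progenitors of a neurosphere, with precursors of DNA. Atf4 is translated when the initiation factor eIF2 is phosphorylated under amino acid shortage or other stress, and it is known to raise transcription of Asns, of the serine enzymes and of mitochondrial folate enzymes.

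The known binding motif of ATF4 dimers with C/EBP proteins is written TGATGNAAN. It was searched because several of these genes, though not all, are known ATF4 targets. The search covered both strands in the window from 250 bases before to 50 bases after each RefSeq transcription start. All 10 genes matched, with 11 windows since Psat1 has more than 1. The motif was found in 1 of the 11, that of Asns, where it begins at position -23 from the start site. It was found in 3.95% of 32851 such windows of the mouse genome. The cAMP response motif TGACGTCA was in 0 of 11 (1.79% of all windows), and the E-box CACGTG was in 0 of 11 (7.15%). The CCAAT box was in 7 of 11, those of Phgdh, Psat1, Psph, Shmt1, Mthfd1, Mthfd2 and Atf4 (37.4% of all windows). No match of 1 of these motifs overlapped a match of another in the windows of the members. A match gives only the letters in this window, and elements further away or within an intron were not searched. The 150 bases before the start of Asns are shown for the ATF4 motif, and those of Psph and Mthfd1 because the probe set of Psph and 2 of the 3 of Mthfd1 stood apart between the genotypes, in opposite directions. Capitals mark TGATGNAAN in Asns and the CCAAT box, read as ATTGG on the printed strand, in the others.
Asns (chr6:7693210-7693359, minus strand): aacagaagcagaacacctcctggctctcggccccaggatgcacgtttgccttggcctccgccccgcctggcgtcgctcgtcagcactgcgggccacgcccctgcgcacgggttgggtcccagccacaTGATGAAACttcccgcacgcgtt
Psph (chr5:129787254-129787403, minus strand): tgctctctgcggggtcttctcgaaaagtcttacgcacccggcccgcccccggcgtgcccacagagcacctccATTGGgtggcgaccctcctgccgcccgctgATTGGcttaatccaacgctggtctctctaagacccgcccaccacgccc
Mthfd1 (chr12:76255082-76255231, plus strand): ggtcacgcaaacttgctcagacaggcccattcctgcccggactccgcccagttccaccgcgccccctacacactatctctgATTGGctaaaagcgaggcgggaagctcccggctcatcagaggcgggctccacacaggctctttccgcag

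The authors deposited 1 log2 intensity per probe set and array. The difference between genotypes is given as M, the Ts1Cje mean less the disomic mean on the log2 scale, and the level as A, the mean over all 6 arrays. A probe set with A above 5 was treated as expressed, which held for 23 of the 26 member probe sets and for all 10 genes. Over the series it held for 16371 probe sets. The 3 that did not pass were a probe set of Shmt1 (A 4.63), of Shmt2 (A 2.53) and of Atf4 (A 4.73). The brightest probe set of each gene is called its leading probe set, and levels of different probe sets were not set against each other, because probes differ in how they bind. The array medians lay between 2.69 and 2.71, and any pair of arrays correlated between 0.991 and 0.997. Of 10 neural stem cell and astrocyte markers, 8 were expressed, all but Gfap (A 4.87) and S100b (A 2.97). Among the oligodendrocyte lineage markers 5 of 7 were expressed, and among the neuroblast and neuron markers 2 of 8. By contrast, 0 of 6 microglial, 0 of 6 vascular and 0 of 5 ependymal markers had A above 5. In bulk cultures a smaller number of cells of 1 type and less RNA per cell cannot be told apart.

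Across the 23 expressed member probe sets M ran from -0.99 to 0.43 with a median of 0.12, against a median of 0.01 over all expressed probe sets, and 16 had an M above 0. That median rested on single arrays: it was -0.01 without replicate 2 of disomic and 0.06 without replicate 1 of Ts1Cje. Every Ts1Cje array lay above every disomic array at 2 of the 23 (Phgdh and Psph), where 5.53% of all expressed probe sets did so. Every Ts1Cje array lay below every disomic array at 3 of the 23 (a probe set of Psat1 and a pair of Mthfd1), where 5.21% of all did so. The genotypes overlapped at the other 18. The moderated t of limma passed 4 at 0 member probe sets and -4 at 0, against 0.965% and 0.812% of all expressed probe sets. In that fit, 1 of 45037 probe sets (0.00222%) had an adjusted p under 0.05, which was not a member, and the adjusted p was 1 at all 26 member probe sets. At an unadjusted p under 0.05 there was 1 member probe set, that of Psph, and 1011 of the 16371 expressed probe sets (6.18%). With 3 arrays per genotype an exact permutation test cannot give a two-sided p below 0.1, and the number of cultures limits the precision of every M. The labels call the arrays biological replicates, so these values measure the spread between cultures. The members were chosen with this contrast in view, and nothing is read from these shares.

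**Figure D1:**
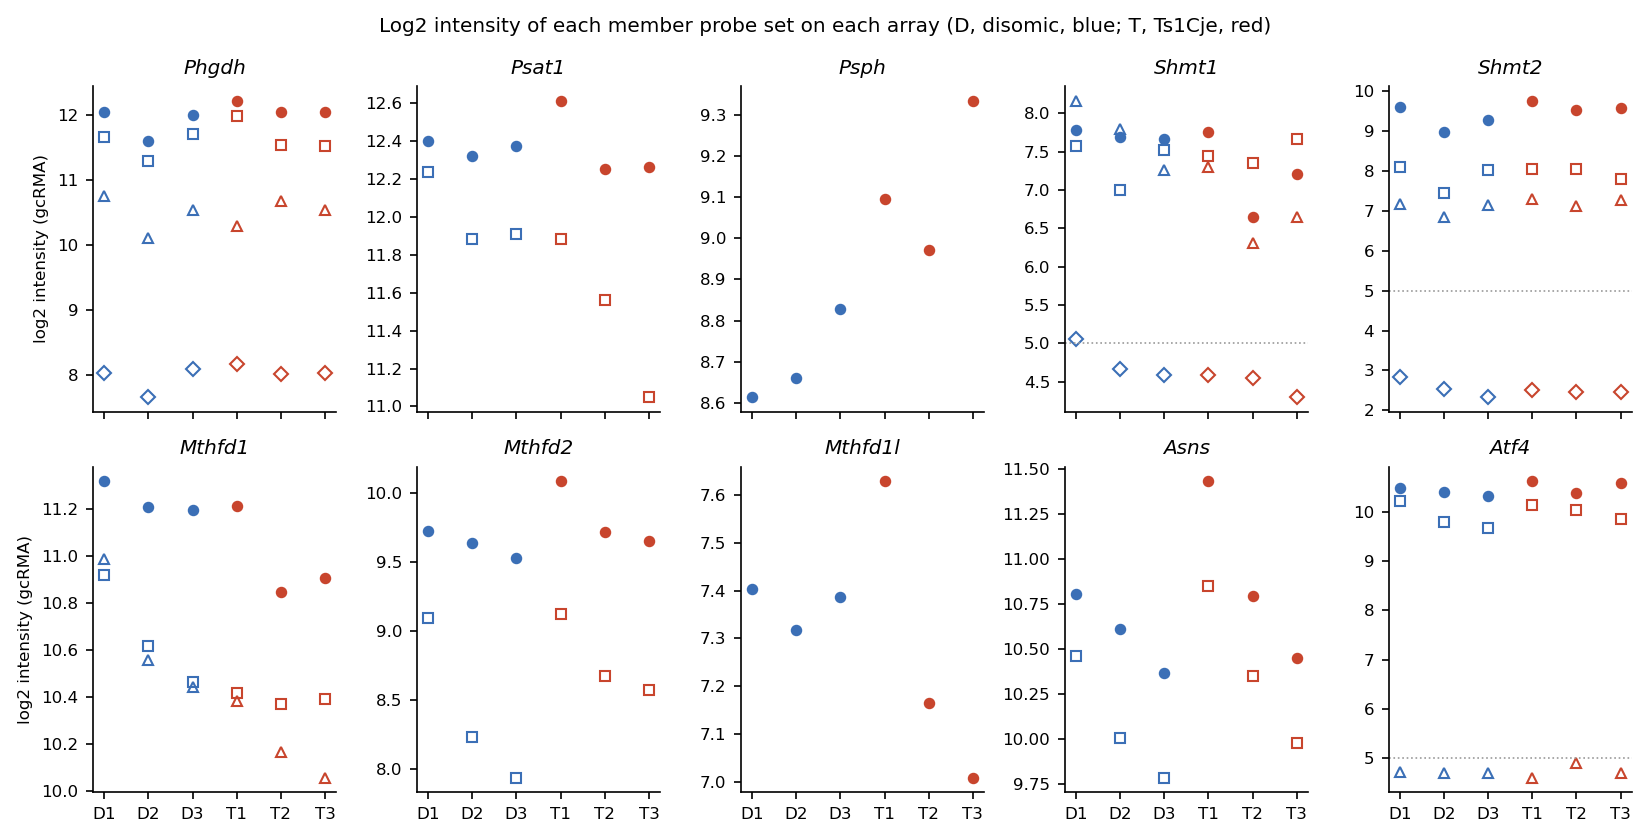
Log2 intensity (vertical axis, 1 scale per gene) of each member probe set on the 3 disomic (D1 to D3, blue) and 3 Ts1Cje (T1 to T3, red) arrays; filled circles are the leading probe set, open symbols the other probe sets of the gene, and the dotted line marks 5 where a probe set lies near or under it. The Psph values of the Ts1Cje arrays (8.97 to 9.33) lie above all disomic values (8.61 to 8.83), while both probe sets of Asns overlap between the genotypes.

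Serine synthesis opens with Phgdh, the dehydrogenase that commits 3-phosphoglycerate to the pathway. Its leading probe set, 1454714_x_at, read 12.05, 11.61 and 12.01 on the disomic arrays and 12.22, 12.06 and 12.05 on the Ts1Cje arrays. The Ts1Cje values sat just above the disomic ones, with the lowest Ts1Cje and the highest disomic value equal at 2 decimals and 1 disomic array, replicate 2, lower than the rest. The means were 11.89 ± 0.25 and 12.11 ± 0.10 (SD, n = 3 each), an M of 0.22 with a standard error of 0.15 or 1.17-fold. At the other 3 expressed Phgdh probe sets M was 0.12, 0.03 and 0.14, with standard errors from 0.14 to 0.21 and overlap between the genotypes, so all 4 had a positive M and 3 of the 4 an M within about 1 standard error of 0. The pair of probe sets shared with Gm8096 and Gm6756 gave an M of 0.01 and 0.24.

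Psat1 encodes the aminotransferase of the middle step, and its probe sets disagreed. At the leading probe set, 1454607_s_at, the disomic arrays read 12.40, 12.32 and 12.38 and the Ts1Cje arrays 12.61, 12.26 and 12.26. The Ts1Cje arrays thus held both the highest and the lowest values, and M was 0.01 (SE 0.12). At 1451064_a_at the disomic values were 12.24, 11.88 and 11.91 and the Ts1Cje values 11.88, 11.56 and 11.05. Here the Ts1Cje arrays were the lower, with the ranges meeting at 11.88, and replicate 3 of Ts1Cje was the furthest down. The means were 12.01 ± 0.20 and 11.50 ± 0.42 (SD, n = 3 each), with an M of -0.51 (SE 0.26, 0.70-fold). The annotation names Psat1 for both, and a mean over them gives an M of -0.25.

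Psph is the phosphatase that releases serine at the last step. Its only probe set, 1415673_at, read 8.61, 8.66 and 8.83 on the disomic arrays and 9.10, 8.97 and 9.33 on the Ts1Cje arrays. The lowest Ts1Cje array lay above the highest disomic array. The means were 8.70 ± 0.11 and 9.13 ± 0.18 (SD, n = 3 each). M was 0.43 with a standard error of 0.12, or 1.35-fold, and the moderated t of 3.62 was the highest of the members. Leaving out any 1 array kept M between 0.33 and 0.52. Over the 7 expressed probe sets of the serine synthesis genes the median M was 0.12, and 6 of the 7 were above 0.

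Among the folate enzymes, the cytosolic and mitochondrial serine hydroxymethyltransferases, which split serine into glycine and a one-carbon unit, had leading probe sets of opposite sign. The cytosolic gene, Shmt1, had a leading probe set (1425178_s_at) with values of 7.78, 7.69 and 7.67 on the disomic arrays and 7.76, 6.65 and 7.21 on the Ts1Cje arrays. Replicate 1 of Ts1Cje was at the disomic level and the other Ts1Cje arrays were below it, for an M of -0.51 (SE 0.31). The probe set 1425179_at had the lowest M of all members, -0.99 (SE 0.38, 0.51-fold), from disomic values of 8.16, 7.80 and 7.26 and Ts1Cje values of 7.30, 6.31 and 6.64. Its groups still overlapped, since replicate 3 of disomic lay below replicate 1 of Ts1Cje. The third expressed probe set, 1425177_at, had a positive M of 0.12 (SE 0.20), so the direction of Shmt1 was not the same across its probe sets.

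Shmt2, the mitochondrial enzyme and a known ATF4 target, had a positive M at each of its 3 expressed probe sets. The leading one, 1455084_x_at, read 9.60, 8.98 and 9.28 on the disomic arrays and 9.75, 9.53 and 9.58 on the Ts1Cje arrays. Replicate 1 of disomic fell among the Ts1Cje values, and the M of 0.34 (SE 0.18, 1.26-fold) had overlapping groups. At 1426423_at and 1455985_x_at M was 0.11 (SE 0.22) and 0.18 (SE 0.11).

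Mthfd1, the cytosolic enzyme that interconverts the folate-bound carbon forms used for purines and thymidylate, had an M below 0 at all 3 of its probe sets. At 1415917_at the disomic arrays read 10.99, 10.56 and 10.44 and the Ts1Cje arrays 10.38, 10.17 and 10.06. All Ts1Cje values were under all disomic values, with means of 10.66 ± 0.29 and 10.20 ± 0.17 (SD, n = 3 each) and an M of -0.46 (SE 0.18, 0.73-fold). At 1415916_a_at the values were 10.92, 10.62 and 10.46 against 10.42, 10.37 and 10.39, again without overlap, with an M of -0.27 (SE 0.13). The leading probe set, 1436704_x_at, read 11.32, 11.21 and 11.20 against 11.22, 10.85 and 10.91. There, replicate 1 of Ts1Cje fell within the disomic range, and M was -0.25 (SE 0.12).

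Mthfd2 is the mitochondrial counterpart, known as an ATF4 target that is abundant in dividing cells. Its leading probe set, 1419254_at, read 9.72, 9.64 and 9.53 on the disomic arrays and 10.09, 9.72 and 9.65 on the Ts1Cje arrays, with an M of 0.19 (SE 0.14). At 1419253_at the disomic arrays ranged from 7.94 to 9.10 and the Ts1Cje arrays from 8.57 to 9.13, with an M of 0.37 and a standard error of the same size. Both genotypes overlapped at both probe sets. Mthfd1l, which releases formate from the mitochondrion, had 1 probe set with disomic values of 7.40, 7.32 and 7.39 and Ts1Cje values of 7.63, 7.17 and 7.01. The disomic arrays were close together and the Ts1Cje arrays lay on either side of them, for an M of -0.10 (SE 0.18). Over the 12 expressed probe sets of the folate enzymes, 6 had an M above 0 and 6 below, with a median of 0.00.

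Asns makes asparagine from aspartate and glutamine and is a standard readout of ATF4. The leading probe set, 1433966_x_at, read 10.81, 10.61 and 10.36 on the disomic arrays and 11.43, 10.79 and 10.45 on the Ts1Cje arrays. At 1451095_at the disomic values were 10.46, 10.01 and 9.79 and the Ts1Cje values 10.85, 10.35 and 9.98. On both, replicate 1 of Ts1Cje was the highest array and replicate 3 of disomic the lowest, and the groups overlapped widely. M was 0.30 (SE 0.30) and 0.31 (SE 0.31), so the difference was about as large as its standard error in the fit of genotype alone. With the replicate number as a block the standard errors were 0.15 and 0.05, but the labels do not say that these numbers mark pairs. Leaving out 1 array moved M of the leading probe set between 0.03, without replicate 1 of Ts1Cje, and 0.52, without replicate 3 of Ts1Cje.

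The RNA of Atf4 itself, whose protein is set largely by translation, had small differences. Its leading probe set, 1438992_x_at, read 10.49, 10.40 and 10.32 on the disomic arrays and 10.61, 10.37 and 10.58 on the Ts1Cje arrays. The groups overlapped, with an M of 0.12 (SE 0.08). At 1448135_at M was 0.11 (SE 0.18). The 4 expressed probe sets of Asns and Atf4 all had an M above 0, with a median of 0.21.

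**Figure D2:**
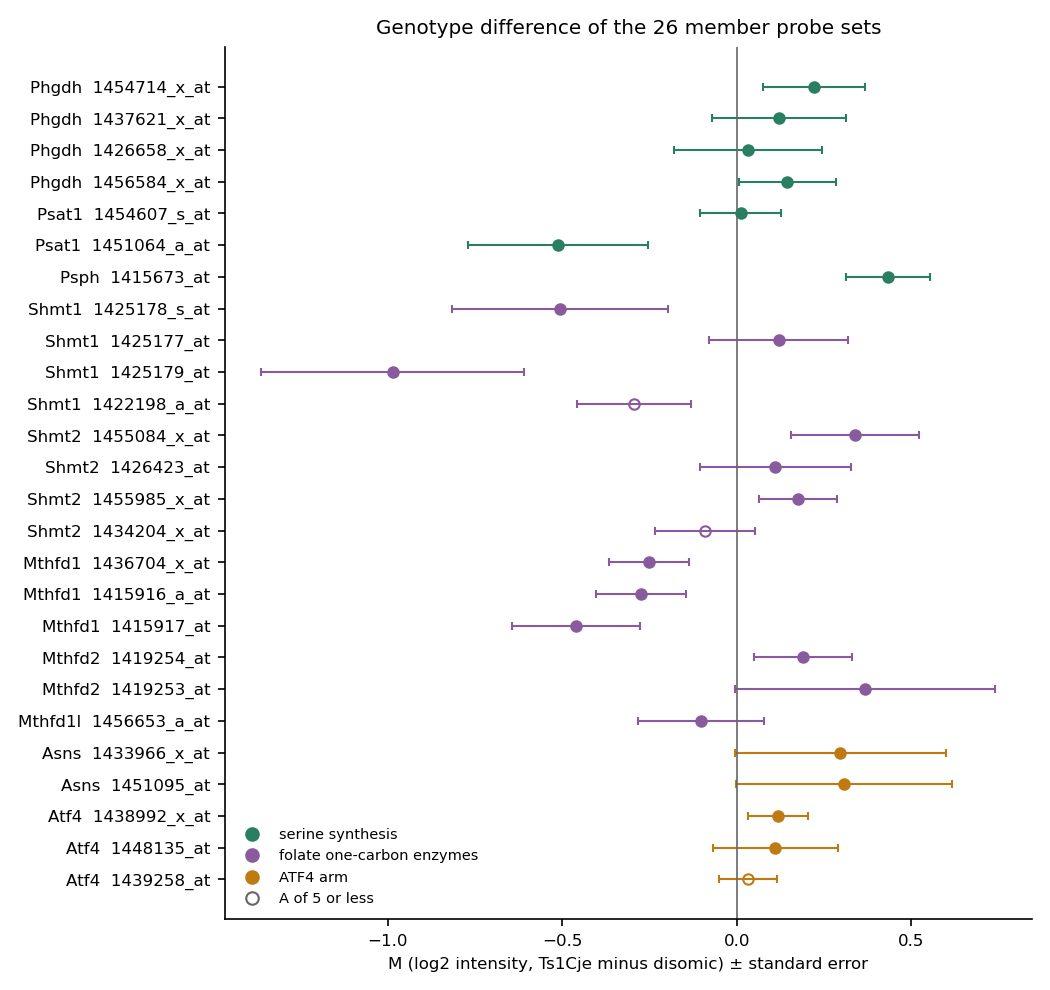
M of each of the 26 member probe sets (horizontal axis, log2, Ts1Cje minus disomic) with its standard error from limma, coloured by role; open circles have A of 5 or less. The points run from -0.99 for a probe set of Shmt1 to 0.43 for Psph, with the 3 Mthfd1 probe sets below 0 and the 4 Phgdh probe sets above it.

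Counted by gene at the leading probe set, 7 of the 10 genes had an M above 0, with a median of 0.15, against 4822 of 8947 genes and a median of 0.02 over all leading probe sets with A above 5. Phgdh and Psph (2 of 10) were without overlap above, against 6.12% of all genes, and 0 of 10 were without overlap below, against 5.16%. No member passed a moderated t of 4 or -4 at its leading probe set, against 1.13% and 0.693% of all genes. The 3 genes with an M below 0 were Shmt1, Mthfd1 and Mthfd1l. Leaving out single arrays changed the sign of M at the leading probe sets of Psat1 (from -0.11 to 0.07) and Mthfd1l (from -0.28 to 0.03) and at no other member.

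Much of the spread of the members was between cultures of the same genotype. Replicate 1 of Ts1Cje was the highest of the 6 arrays at 12 of the 23 expressed member probe sets and replicate 1 of disomic at 9. Replicate 2 of disomic was the lowest at 8 and replicate 3 of disomic at 6. Measured from each probe set's own mean, the members averaged 0.20, -0.14 and -0.06 on disomic replicates 1, 2 and 3 and 0.21, -0.10 and -0.11 on the Ts1Cje replicates. In each genotype 1 culture, replicate 1, thus stood higher than the other cultures. The labels do not say whether a replicate number marks a pair of littermates. The count of probe sets below all disomic arrays was 8 without replicate 1 of Ts1Cje, in place of 3, and the count above was 6 without replicate 1 of disomic, in place of 2. With fewer arrays to compare the shares over all expressed probe sets were also higher, 13.2% and 10.4% at these settings.

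**Figure D3:**
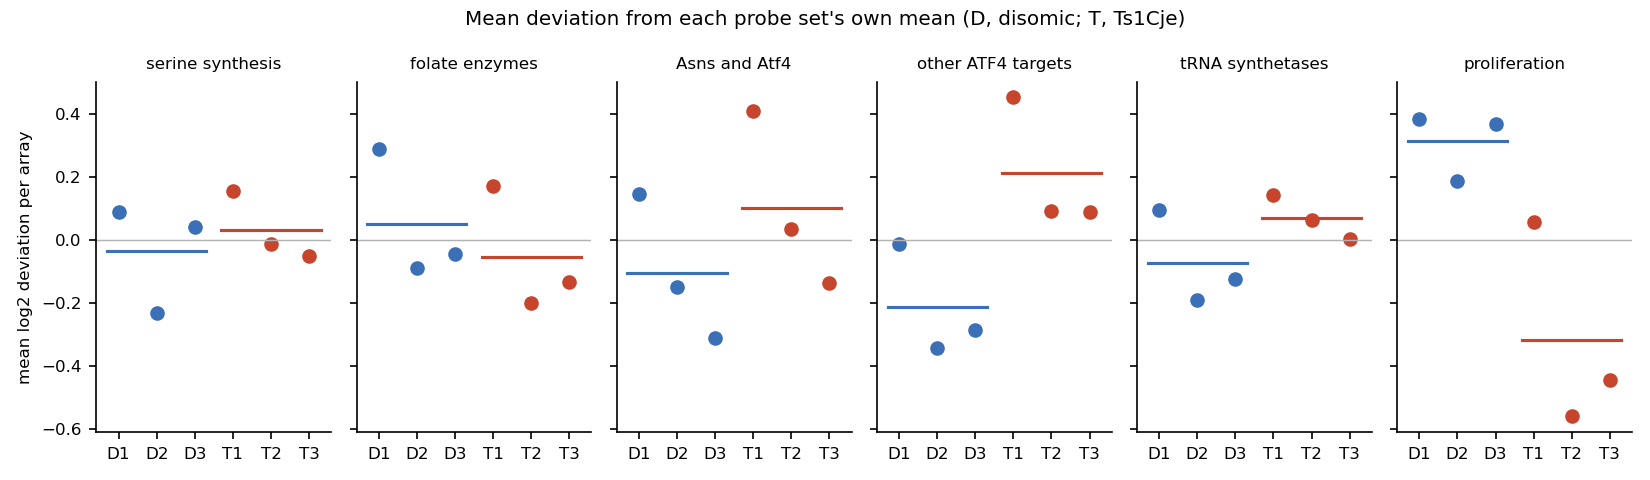
Mean log2 deviation per array (vertical axis) from each probe set's own mean over the 6 arrays, for the expressed probe sets of 3 member groups and for the leading probe sets of 3 further gene lists; blue points are disomic (D1 to D3), red points Ts1Cje (T1 to T3), and bars are the mean of each genotype. For the other ATF4 targets the Ts1Cje arrays (0.09 to 0.45) lie above the disomic arrays (-0.34 to -0.01), for Asns and Atf4 they overlap, and for the proliferation genes they lie below.

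The wider pathway was read from 8 lists of known genes, drawn up with results of these arrays known, at leading probe sets with A above 5. In these lists 64 of 79 measured genes were expressed, of which 49 had an M above 0, with a median of 0.17. For 12 of them the Ts1Cje arrays were all above the disomic arrays and for 1 all below, against the 6.12% and 5.16% of all genes given above. All had an adjusted p of 1 in limma, and 7 of the 64 had an unadjusted p under 0.05, against 591 of all 8947 genes (6.61%).

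Other folate genes, which import, retain or use folate, were expressed in 11 of 16 cases, and 8 of the 11 had an M above 0 (median 0.12). The only one without overlap was Gart, the trifunctional purine synthesis enzyme, which lies in the trisomic segment. Gart read 9.72, 9.23 and 9.56 on the disomic arrays and 10.27, 10.19 and 10.02 on the Ts1Cje arrays, with every trisomic value the higher. M was 0.66 (SE 0.15, 1.58-fold), and its 4 probe sets gave M from 0.60 to 0.66 with no overlap at any. Without Gart, 48 of the 63 other pathway genes had an M above 0, with the same median of 0.17. The folate hydrolase Ggh, the reduced folate carrier Slc19a1 and the polyglutamate synthase Fpgs had M of 0.26 (SE 0.18), 0.33 (SE 0.31) and -0.22 (SE 0.18), and all overlapped.

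Glycine cleavage, the mitochondrial route that takes a further carbon from glycine, gave 1 of its 3 genes above 0. This was Gcsh, the lipoyl carrier protein, with 11.88, 11.80 and 11.73 against 12.20, 11.94 and 12.12, an M of 0.29 (SE 0.08) without overlap. Gldc, the decarboxylase of the same complex, and Dld, its dehydrogenase, had M of -0.07 (SE 0.06) and -0.18 (SE 0.11). In the methionine cycle and transsulfuration list 4 of 7 expressed genes were above 0 with a median of 0.01, among them Mtrr, which reactivates methionine synthase, at 0.22 (SE 0.12) without overlap. The ranges of Mtrr nearly touched, with a highest disomic value of 5.72 and a lowest Ts1Cje value of 5.73. Ahcy, the hydrolase of S-adenosylhomocysteine, had an M of -0.32 (SE 0.16), while its relative Ahcyl1 gave 0.23 (SE 0.14) at the leading probe set and -0.05 and -0.22 at the others, all with overlap. Of the genes that transport or use serine, 3 of 5 were above 0 with a median of 0.15. Srr, which converts L-serine to D-serine, read 8.58, 8.56 and 8.68 against 8.72, 8.95 and 9.02, the Ts1Cje arrays all higher and M 0.29 (SE 0.09), and overlapped at its other expressed probe sets. The glycine transporter Slc6a9 and the palmitoyltransferase subunit Sptlc1, which uses serine for sphingolipids, had M of 0.54 (SE 0.32) and -0.31 (SE 0.22) with overlap.

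Upstream of Atf4, the list of eIF2 kinases and their partners had 8 expressed genes, 6 with an M above 0 and a median of 0.16. Eif2ak2, the kinase PKR that responds to double-stranded RNA and is induced by interferon, read 5.51, 5.64 and 5.62 on the disomic arrays and 6.06, 6.35 and 6.69 on the Ts1Cje arrays. The Ts1Cje arrays were all higher, with an M of 0.78 (SE 0.18, 1.72-fold) and a moderated t of 4.42. A further Eif2ak2 probe set, 1422006_at, was nearly constant at 5.59 to 5.61 with an M of 0.00. Impact, an inhibitor of the amino acid sensing kinase Gcn2, had an M of 0.25 (SE 0.11) without overlap at its leading probe set and of -0.17 (SE 0.14) with overlap at the other. That kinase itself, Eif2ak4, had an M of 0.17 (SE 0.13) with overlap. Eif2b5, a subunit of the eIF2 exchange factor, was the 1 gene of the wider pathway below all disomic arrays, with an M of -0.18 (SE 0.05). Among the partners of ATF4, 3 of 7 transcription factors were expressed, and all overlapped, with M of -0.13 for Cebpg, 0.13 for Ddit3 and 0.17 for Cebpb. The other probe sets of Cebpg gave 0.13 and -0.56.

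The other ATF4 targets of amino acid metabolism and transport had the highest median of the lists, 0.43, with 14 of 15 expressed genes above 0. Ddit4, an inhibitor of mTORC1 that ATF4 and other stress pathways induce, read 8.68, 7.54 and 7.97 on the disomic arrays and 9.39, 8.96 and 9.67 on the Ts1Cje arrays. The groups were apart, though the disomic replicates differed from each other by more than the gap between the groups, and M was 1.27 (SE 0.38, 2.42-fold). Chac1, which degrades glutathione, read 5.43, 5.25 and 5.25 against 5.67, 5.65 and 5.46, close to the limit for expression, with an M of 0.29 (SE 0.09). Slc7a11, the cystine transporter, read 6.21, 5.41 and 5.13 against 6.80, 6.37 and 6.21. Its groups touched at 6.21, and M was 0.88 (SE 0.35, 1.83-fold). The genes of this list without overlap numbered 4 of 15, against 6.12% of all genes above, in a list drawn up with results of these arrays known. They were Ddit4, Chac1 and, named after their values were seen, Slc3a2 and Aldh18a1. Slc3a2 (M 0.43, SE 0.18) is the shared heavy chain of several amino acid transporters, and Aldh18a1 (M 0.44, SE 0.21) makes the precursor of proline. By array the list averaged -0.01, -0.34 and -0.28 on the disomic replicates and 0.45, 0.09 and 0.09 on the Ts1Cje replicates, all Ts1Cje arrays above all disomic arrays. The median stayed between 0.26 and 0.53 when any 1 array was left out. The count without overlap was 8 of 15 without replicate 1 of disomic, where 12.2% of all genes were above, and 7 without replicate 3 of Ts1Cje, where 9.87% were. It was 3 under cyclic loess or quantile normalization. The aminoacyl-tRNA synthetases of the cytoplasm, several of them ATF4 targets, had 11 of 12 genes above 0 with a median of 0.12. Sars (0.33, SE 0.15) and Aars (0.30, SE 0.17), which charge the tRNAs of serine and alanine, were without overlap at their leading probe sets and overlapped at a further one each, and Yars, for tyrosine, had an M of 0.29 (SE 0.14) with overlap.

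**Figure D4:**
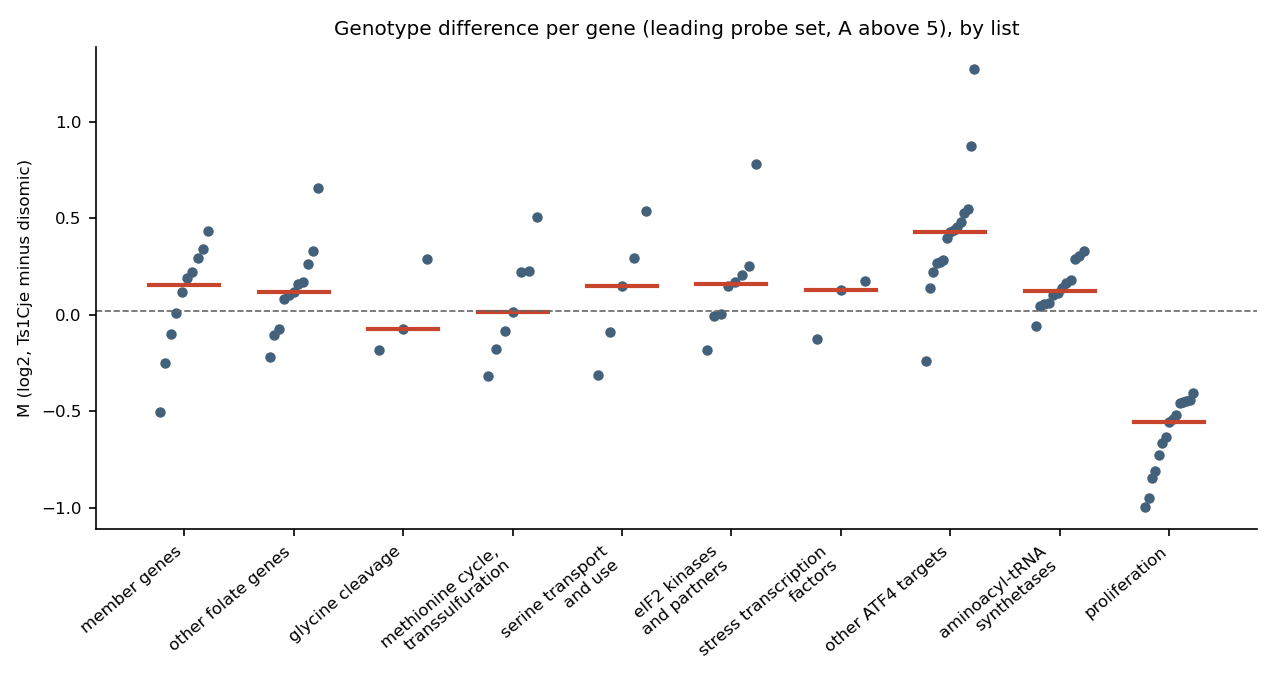
M of each gene at its leading probe set with A above 5 (vertical axis, log2, Ts1Cje minus disomic) for the 10 member genes, 8 pathway lists and a list of proliferation genes; points are genes, red bars the median of each list, and the dashed line the median over all genes (0.02). The other ATF4 targets have a median of 0.43 and the member genes 0.15, while all 15 proliferation genes are below 0.

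Proliferation genes and measures of RNA quality moved with genotype on these arrays. All 15 expressed proliferation genes had an M below 0, with a median of -0.55. At 9 of them every Ts1Cje array lay below every disomic array, against 5.16% of all genes. The moderated t passed -4 at 2 of the 15, against 0.693% of all genes, and none had an adjusted p under 0.05 in limma. By array the proliferation genes averaged 0.39, 0.19 and 0.37 on the disomic and 0.06, -0.56 and -0.44 on the Ts1Cje replicates. Replicate 1 of Ts1Cje, the array on which most members were highest, was thus also the Ts1Cje array with the highest proliferation values. The log2 difference between 3' and 5' probe sets, which grows with shorter labelled RNA, was higher on every Ts1Cje array for actin (1.87 to 2.26, against 1.53 to 1.83) and for Gapdh (2.29 to 2.44, against 2.09 to 2.28). The 18S ribosomal RNA probe sets read 11.97 to 12.36 against 10.24 to 11.74. Of the stem cell and astrocyte markers, 6 of 8 expressed had an M above 0 (median 0.12). The genotypes overlapped at 7 of the 8, all but Aqp4 (M 0.81, SE 0.23). All 5 expressed oligodendrocyte markers had an M below 0 (median -0.07), and the genotypes overlapped at all 5. Both expressed neuroblast and neuron markers also had an M below 0 (median -0.20), with overlap. The part of proliferation, RNA quality and cell types in the values of the serine, folate and ATF4 genes was not tested.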

How the data were processed

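Gene expression was measured on 6 arrays, 3 of Ts1Cje and 3 of disomic neurospheres. The authors deposited log2 intensities made with gcRMA, which corrects background by the base composition of probes, normalizes across arrays and summarizes each probe set; its version is not given in the sources used here, and these steps cannot be repeated from the deposited values. The mean signal can depend on where probes lie in a transcript, since labelling ran for 2 cycles.

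Genotype was fitted as the only term over the 45037 probe sets other than the 64 controls with limma 3.58.1 in R 4.3.3 (moderated t, Benjamini-Hochberg adjustment over all of them). The prior degrees of freedom were 0.336, so each probe set was judged by its own spread. Genes and promoters were taken from the platform annotation and from RefSeq (GRCm38.p6). Tables and figures were made in Python 3.11.15 with pandas 2.3.3 and matplotlib 3.10.9.

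The members and the gene lists were chosen with earlier results of these data known. Named genes were all members, pathway genes whose genotypes did not overlap and whose moderated t was beyond 4, up to 3 further genes per list with the largest moderated t, and Gart. Alternatives were other normalizations of the deposited values, array weights, an intensity trend, other limits on A, the mean over probe sets, each array left out and the replicate number as a block.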

Additional observations from a re-analysis of the deposited data

How the results depend on the processing

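M of the 10 member genes was recomputed under 10 settings. Of these 100 values 99 stayed within 1 SD of replicates, and 1 moved further, Psat1 as a mean over its probe sets (-0.25). With 3 arrays per genotype, leaving out 1 array cannot shift M by that much. The settings with an array left out could therefore not fail this limit, and their values do not show that M is stable. The mean over probe sets could not move Psph or Mthfd1l, which had 1 expressed probe set each. The cyclic loess and quantile settings started from values that gcRMA had already normalized. The count of 99 is therefore not a measure of stability. With 1 array left out the sign of M changed for Psat1 and Mthfd1l, and M of Asns fell from 0.30 to 0.03. The median M of the member probe sets lay between -0.01 and 0.20 with 1 array left out, lowest without disomic replicate 2. Member probe sets without overlap above numbered 1 under quantile normalization and 2 to 6 with 1 array left out, among them 4 without Ts1Cje replicate 2. Those below numbered 3 to 8. A moderated t past 4 was reached by 0 to 2 with 1 array left out, 2 without Ts1Cje replicate 1 and 1 without Ts1Cje replicate 2. At those settings, in that order, 4.79% and 2.53% of all expressed probe sets had an absolute moderated t above 4. For the other ATF4 targets, whose alternatives were chosen after seeing the data, the count without overlap was 4 to 8 with 1 array left out and 3 under cyclic loess or quantile normalization. Leaving out an array also raised the shares without overlap over all expressed probe sets, to between 9.2% and 12.9% above and between 7.97% and 13.2% below. Counted by gene at leading probe sets, as for the other ATF4 targets, the share above was between 9.87% and 13.7%.

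The genotypes share replicate numbers, but the same-numbered arrays deviated together with correlations of only -0.17, -0.03 and 0.13, and not every array correlated best with its own number, so the numbers were not taken as pairs, although the study describes littermate pairs. With the replicate block the member probe sets with a moderated t past 4 numbered 4, in place of 0, and those of all expressed probe sets 1081, in place of 291, while the adjusted p passed at 0 probe sets, in place of 1. The 4 were that of Psph (t 7.60), 1451095_at of Asns (5.61), 1415917_at of Mthfd1 (-6.86) and 1425179_at of Shmt1 (-4.13). The block leaves fewer degrees of freedom, so a t of 4 is a weaker limit there. The counts with and without it are therefore not on the same footing. Signal over background limited 3 of the 26 member probe sets (A of 5 or less), and the 3 cultures per genotype limit the rest.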
